A study of Arabidopsis thaliana with 18 samples.

Results

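The 9 genes described here encode the group S1 and group C basic leucine zipper (bZIP) transcription factors of Arabidopsis thaliana. They were taken by locus identifier from a table of 32833 genes, and all 9 had a row. Group S1 has 5 members, bZIP1 (AT5G49450), bZIP2 (AT2G18160), bZIP11 (AT4G34590, also named GBF6), bZIP44 (AT1G75390) and bZIP53 (AT3G62420). Group C has 4, bZIP9 (AT5G24800), bZIP10 (AT4G02640, BZO2H1), bZIP25 (AT3G54620) and bZIP63 (AT5G28770, BZO2H3). All 9 had enough reads to be tested in both experiments.

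Proteins of the S1 and C groups form heterodimers with each other and bind ACGT-type elements and the ACTCAT element of amino acid metabolism genes. The energy-sensing kinase SnRK1 acts through this network when sugar is short, with bZIP63 as a phosphorylated substrate. The leaders of the S1 transcripts carry a conserved upstream reading frame whose peptide stalls ribosomes when sucrose is abundant, so S1 protein need not follow S1 RNA. RNA was measured here, not translation or protein.

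RNA was sequenced from 18 Col-0 libraries, 3 in each of 6 groups, from plants grown at 21 °C with 10 h of light. Discs from mature rosette leaves of plants 4 weeks old were held overnight in Murashige and Skoog medium with 1% mannitol, the osmotic control, 1% glucose or 1% fructose. In a separate leaf experiment, untreated leaves were taken at 4 weeks from the wild type and from 2 lines that overexpress ERDL4, a sugar carrier of the vacuolar membrane. The labels call the replicates biological and give neither the plants behind each nor the promoter of the ERDL4 transgene. The p-values therefore reflect the spread among these libraries, part of which may be technical. The study title names fructose signalling and growth, and the 2 experiments bear on the sugar supplied and on the vacuolar carrier.

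Libraries held 17318810 to 26157641 counts. ERDL4 read 111 to 152 CPM (depth-scaled read counts, as set out under the processing) in wild type, 350 to 359 CPM in overexpressor 1 and 568 to 604 CPM in overexpressor 2, as labelled. Replicates 2 and 3 of overexpressor 1 and of overexpressor 2 lay close to each other, at a chi-square of 2.07 and 1.70 for each degree of freedom, and mannitol replicates 1 and 2 came next at 4.59, against 13.8 to 66.1 in the other pairs of replicates. These 3 pairs were also merged, each as 1 library, as an alternative. On the leading component of the leaf libraries, wild-type replicate 2 (-63.9) and overexpressor 1 replicate 1 (8.92) lay nearer to the other genotype than did the rest of their groups. Guard cell markers (2 of 4 called higher in each sugar) summed to 34.3 to 42.7 CPM in mannitol and 125 to 279 CPM in the sugars, and 2 of 3 epidermis markers were called lower in each. The remaining one, CER1, was not called in either. It read 11.3 to 12.7 CPM in mannitol and 48.5 to 113 CPM in fructose (log2 fold change 2.82 ± 1.15; edgeR adjusted p = 0.0595). The epidermis markers summed to 253 to 323 CPM in mannitol, 66.7 to 159 CPM in glucose and 172 to 276 CPM in fructose. The 3 mesophyll markers (RBCS1A, LHCB1.2 and CA1) summed to 4732 to 8665 CPM in mannitol, 1272 to 2731 CPM in fructose and 99.5 to 503 CPM in glucose. They summed to 23400 to 38140 CPM in wild-type leaves and to 8318 to 12780 CPM across the lines. None of the 3 was at 0 in any group, and the 4 seed markers summed to at most 0.458 CPM in any library. The part of these cell types in the results below was not tested.

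In the discs, both sugars were accompanied by lower bZIP1 and bZIP63 transcript, by higher bZIP11 transcript, and by smaller falls of bZIP2, bZIP53 and bZIP9. Fructose against mannitol had 6 of 9 members called, 1 higher and 5 lower, by edgeR's quasi-likelihood test with Benjamini-Hochberg adjustment over all 18784 genes tested and a threshold of 0.05. Of all genes tested, 66.1% were called (36.6% higher and 29.5% lower), so the share of members called was near that of genes in general. Glucose against mannitol had 7 of 9 called, 2 higher and 5 lower, beside 74% of all genes (38.5% higher and 35.5% lower). The median log2 fold change of the members was -1.31 in fructose and -0.76 in glucose, and that of all genes was 0.09 and 0.03. The sugar comparisons share the mannitol libraries, so their values are given side by side and not as separate support. With scaling by library size alone the median of all genes moved to 0.345 in fructose and 0.234 in glucose, and higher genes made up 68.2% and 60% of calls in place of 55.3% and 52%. In bulk tissue, fewer cells of a type and less RNA per cell cannot be told apart.

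bZIP1, an S1 factor linked to sugar starvation and nitrogen signals, fell furthest of the 9 in fructose. It read 55.8, 57.9 and 63.5 CPM in the mannitol libraries, 8.14, 3.81 and 5.51 with glucose and 1.76, 2.04 and 1.61 with fructose. The 3 groups did not overlap, and fructose was lowest in every library. The log2 fold change was -5.04 ± 0.26 (SE, n = 3 per group) in fructose, 32.8-fold lower (edgeR adjusted p = 1.74e-07), and -3.35 ± 0.23 in glucose, 10.2-fold lower (edgeR adjusted p = 6.21e-07). A change at least as large as that in fructose was seen in 1.29% of the genes tested.

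bZIP63, the group C factor phosphorylated by SnRK1, also fell in both sugars. Its levels were 89.1, 90.1 and 87.1 CPM with mannitol, 16.4, 8.11 and 12.1 with glucose and 7.69, 6.60 and 6.29 with fructose. Again no glucose or fructose library reached the mannitol range, and every fructose library lay below every glucose library. bZIP63 fell by 3.69 ± 0.22 on the log2 scale in fructose and by 2.86 ± 0.21 in glucose (edgeR adjusted p = 5.25e-07 and 1.30e-06).

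bZIP11, an S1 factor linked to amino acid and trehalose metabolism and to auxin responses, went the other way. It read 13, 11.5 and 27.3 CPM with mannitol, 144.5, 128 and 134 with glucose and 95.4, 99.1 and 71 with fructose. Mannitol replicate 3 was the highest of its group and still lay below every sugar library. The rise was 2.35 ± 0.31 in fructose and 2.96 ± 0.32 in glucose (log2 fold change ± SE; edgeR adjusted p = 0.000177 and 3.33e-05).

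The promoters of bZIP63 and bZIP11 are shown because these members moved against each other in both sugars. Each sequence is the 250 bases before the annotated transcript start in TAIR10.1, 5′ to 3′ on the gene's strand, in lower case throughout since none of the motifs searched occurs in them. The windows are chr5:10798306-10798555 (minus strand) for bZIP63 and chr4:16521611-16521860 (plus strand) for bZIP11.
bZIP63: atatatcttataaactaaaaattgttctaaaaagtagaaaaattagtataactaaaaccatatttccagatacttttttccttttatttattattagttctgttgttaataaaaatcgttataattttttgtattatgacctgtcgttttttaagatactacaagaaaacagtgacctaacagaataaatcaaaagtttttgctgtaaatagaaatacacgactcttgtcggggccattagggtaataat
bZIP11: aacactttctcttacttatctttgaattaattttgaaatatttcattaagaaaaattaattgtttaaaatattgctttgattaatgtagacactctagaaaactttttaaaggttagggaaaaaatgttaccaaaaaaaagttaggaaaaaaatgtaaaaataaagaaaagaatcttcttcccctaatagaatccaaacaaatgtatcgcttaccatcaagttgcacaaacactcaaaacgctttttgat
Searches on both strands used the G-box, which reads CACGTG, the C-box, which reads GACGTC and has the same ACGT core, and the ACTCAT element. Neither window held any of them, while 6.49%, 2.27% and 12.3% of 27443 protein-coding windows of this length held each. None of the 4 group C windows held them, so the absence is not particular to this pair. This says only that these letters are not in these windows.

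The other S1 genes changed less. bZIP2, which binds the proline dehydrogenase promoter in Arabidopsis, read 88.5, 90.5 and 110.3 CPM with mannitol, 36.4, 29.8 and 37.8 with glucose and 41.8, 35.6 and 39.3 with fructose. Glucose and fructose overlapped, and both lay wholly below mannitol. It fell by 1.31 ± 0.12 in fructose and by 1.48 ± 0.12 in glucose (log2; edgeR adjusted p = 7.71e-06 and 2.25e-06). bZIP53, an activator of proline dehydrogenase and of seed maturation genes, read 87.4, 82.1 and 108.5 CPM with mannitol, 68.6, 52.6 and 57.2 with glucose and 27.7, 32.1 and 30.3 with fructose. The order mannitol, glucose, fructose held with no overlap. The change was -1.63 ± 0.14 in fructose and -0.64 ± 0.13 in glucose (edgeR adjusted p = 3.18e-06 and 0.00134).

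bZIP44, known in Arabidopsis for its role in seed germination, read 11.9, 9.65 and 22.9 CPM with mannitol, 7.58, 7.48 and 11.3 with glucose and 19.3, 18 and 13.4 with fructose. Mannitol overlapped both sugars, and fructose only through mannitol replicate 3. Neither change passed the test, 0.18 ± 0.32 in fructose and -0.76 ± 0.32 in glucose (edgeR adjusted p = 0.642 and 0.0586). Without mannitol replicate 3 the fructose value was 0.64 and passed (edgeR adjusted p = 0.039). The glucose change passed under 6 alternatives, among them leaving out glucose replicate 3 (-0.98, edgeR adjusted p = 0.0394) or mannitol replicate 2 (-0.99, edgeR adjusted p = 0.0179).

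In group C, bZIP9, a factor active in phloem, read 36.2, 38.8 and 34.2 CPM with mannitol, 15.5, 15.7 and 14.4 with glucose and 14.4, 13.9 and 13.3 with fructose. Both sugars lay wholly below mannitol, and they overlapped each other. The change was -1.39 ± 0.09 in fructose and -1.26 ± 0.09 in glucose (edgeR adjusted p = 6.87e-07 and 8.34e-07). All 6 phloem markers were called lower in both sugar comparisons (SUC2, APL, AHA3, SEOR1, SWEET11 and SWEET12), and none was at 0. Their summed level ran from 506 to 705 CPM with mannitol, 254 to 287 with glucose and 241 to 318.5 with fructose. Their part in the bZIP9 result was not tested. The gene overlaps AT5G24810, on the other strand, by 35 bases, and that neighbour read 23.9 to 27.6 CPM in mannitol and 47.9 to 65.4 CPM in the sugars.

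bZIP10, which binds the cell death regulator LSD1, stayed within a narrow range of 37.2 to 44.5 CPM in all 9 disc libraries. Its values were 40.9, 43.9 and 44.3 CPM with mannitol, 44.5, 37.2 and 37.5 with glucose and 39.6, 40.3 and 41.8 with fructose, with overlap throughout. The differences, -0.08 ± 0.09 in fructose and -0.12 ± 0.09 in glucose, were not called (edgeR adjusted p = 0.437 and 0.272), and their sign turned when libraries were scaled by size alone (0.17 and 0.08). Without glucose replicate 1 the glucose value was -0.25 and passed (edgeR adjusted p = 0.0225).

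bZIP25, an activator of seed storage genes, was the most abundant group C transcript in the discs. It read 119, 118 and 143 CPM with mannitol, 176, 155 and 144 with glucose and 99, 117 and 95.9 with fructose. The 3 groups did not overlap, with glucose highest, but the nearest libraries differed by little. It rose by 0.32 ± 0.12 in glucose (edgeR adjusted p = 0.033). The call was lost under 12 of 22 alternatives, among them leaving out glucose replicate 1 (0.19, edgeR adjusted p = 0.204), mannitol replicate 1 (0.28, edgeR adjusted p = 0.112) or mannitol replicate 2 (0.27, edgeR adjusted p = 0.113). The value of -0.29 ± 0.12 in fructose did not pass (edgeR adjusted p = 0.0542). It passed under 8 of 22 alternatives, among them leaving out fructose replicate 2 (-0.38, edgeR adjusted p = 0.0236) or glucose replicate 1 (-0.34, edgeR adjusted p = 0.0233).

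**Figure D1:**
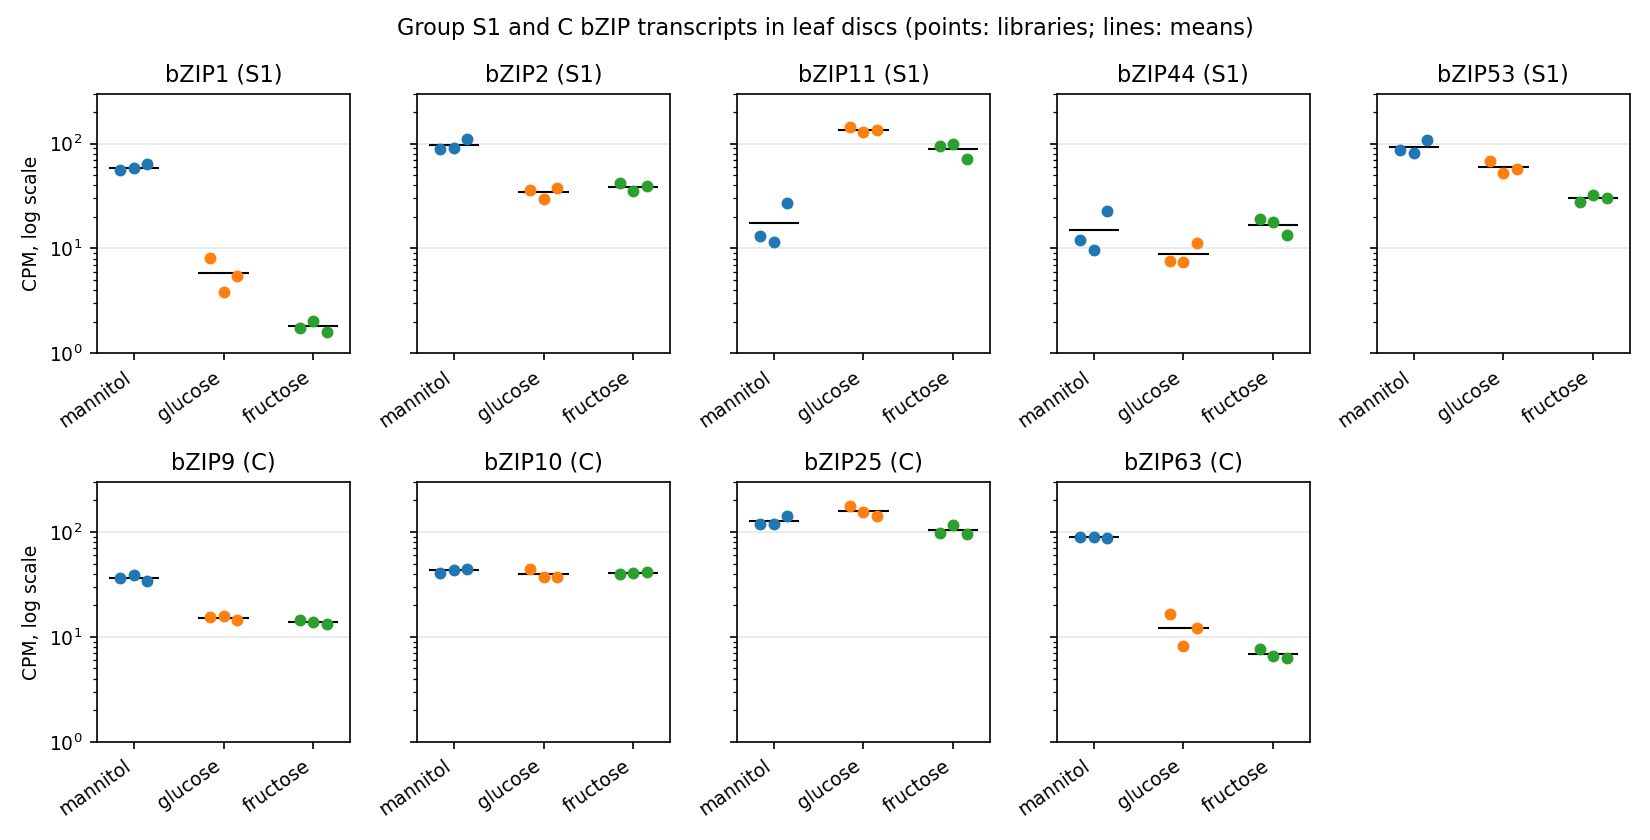
Levels of the 9 transcripts in each leaf disc library, in CPM on a log axis, with 3 points per group and a line at the group mean. bZIP1 and bZIP63 are highest in mannitol and lowest in fructose, bZIP11 is lowest in mannitol, and bZIP10 stays between 37.2 and 44.5 CPM.

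Fructose and glucose differed directly in 5 of 9 members, 1 higher and 4 lower in fructose, beside 49.3% of all genes (24.7% higher and 24.6% lower; edgeR). bZIP1 was 3.23-fold lower in fructose than in glucose (log2 fold change -1.69 ± 0.25; edgeR adjusted p = 0.00142), and bZIP53 was 1.98-fold lower (-0.99 ± 0.13; edgeR adjusted p = 0.00108). bZIP63 and bZIP25 were also lower, at -0.83 ± 0.22 and -0.61 ± 0.12 on the log2 scale (edgeR adjusted p = 0.0112 and 0.00332). bZIP44 was higher in fructose (0.94 ± 0.32; edgeR adjusted p = 0.0384), with no overlap between the groups, and lost the call without glucose replicate 1 or 2 (edgeR adjusted p = 0.118 and 0.0954) or fructose replicate 1 or 2 (edgeR adjusted p = 0.108 and 0.0841). bZIP11 was lower in every fructose library than in every glucose library, but the change of -0.61 ± 0.29 did not pass (edgeR adjusted p = 0.109). It passed under 4 alternatives, among them leaving out mannitol replicate 3, which enters the shared spread (-0.61, edgeR adjusted p = 0.00638). bZIP2 (0.17 ± 0.12), bZIP9 (-0.13 ± 0.09) and bZIP10 (0.03 ± 0.09) were not called between the sugars (edgeR adjusted p = 0.279, 0.251 and 0.791).

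Set per length, the make-up of group S1 differed between mannitol and the sugars. Levels were divided by the kilobases of exon, and each member's share of the summed S1 level was taken in each library. bZIP2, bZIP53 and bZIP1 made up 32.6% ± 1.03, 30.5% ± 0.75 and 27.3% ± 2.31 (SD, n = 3) of the S1 level in mannitol, and bZIP11 made up 5.07% ± 1.73. In glucose bZIP11 held 52.95% ± 1.94 and bZIP1 3.37% ± 0.97, and in fructose they held 47.7% ± 3.90 and 1.48% ± 0.11. In group C, bZIP63 held 31.3% ± 1.44 in mannitol, 6.02% ± 1.61 in glucose and 4.64% ± 0.59 in fructose, and bZIP25 held 37.8% ± 3.02, 66.8% ± 1.28 and 59.2% ± 2.65. These shares are compositions, in which the fall of a member raises the shares of the others.

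**Figure D2:**
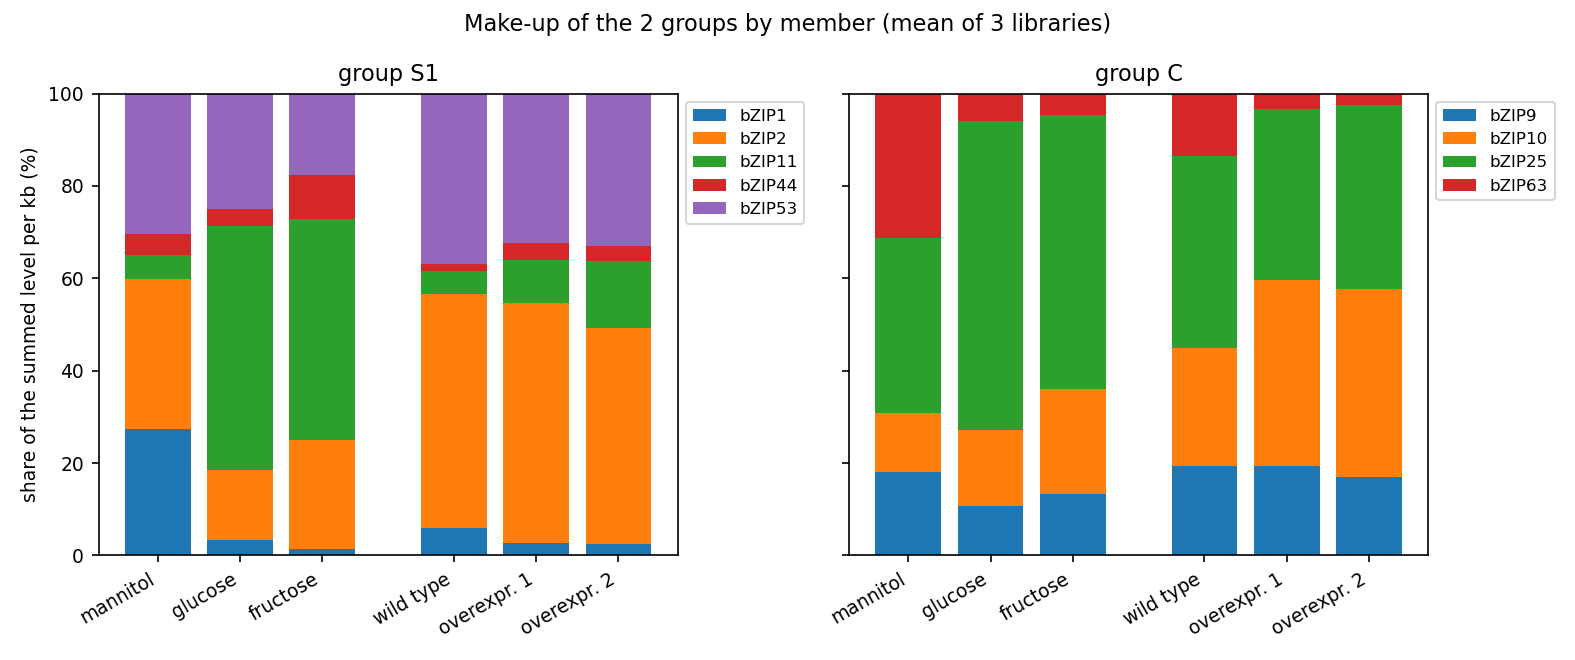
Share of each member in the summed level per kilobase of its group, in percent, as the mean of 3 libraries in each of the 6 sample groups. bZIP11 (green, left) goes from 5.07% of group S1 in mannitol to 52.95% in glucose and 47.7% in fructose, and bZIP63 (red, right) holds 31.3% of group C in mannitol.

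Per kilobase of exon, the summed levels of both groups were lower in all libraries of both sugars than in mannitol. The S1 level summed to 221, 218 and 283 CPM per kilobase in mannitol, 204, 169 and 189 in glucose and 142, 143 and 119.7 in fructose. The group C sum was 191, 195 and 203 in mannitol, 156, 133 and 128 in glucose and 100.4, 109.9 and 97.8 in fructose, in the same unit. The ratio of the S1 to the C sum was 1.22 ± 0.15 in mannitol, 1.35 ± 0.11 in glucose and 1.31 ± 0.10 in fructose (SD, n = 3), and these ranges overlap. By coding length, an alternative chosen after seeing the data, the ratio was 2.15 ± 0.27, 2.67 ± 0.20 and 2.57 ± 0.19, and the glucose range of 2.52 to 2.90 lay above the mannitol range of 1.95 to 2.46. The S1 sums of glucose (466 to 560 CPM per kilobase) and mannitol (536 to 705.5) then overlapped. Those of fructose (322 to 387) stayed below mannitol.

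Within mannitol the order of mean levels per kilobase was bZIP2, bZIP25, bZIP53, bZIP1 and bZIP63 (78.3 to 61.5 CPM per kilobase), whose neighbours overlapped, then bZIP9 (35.7), bZIP10 (24.8), bZIP11 (12.6) and bZIP44 (11.3), of which only the last pair overlapped. In glucose bZIP11 (98.9) and bZIP25 (92.9) led and overlapped, and bZIP63 (8.47), bZIP44 (6.70) and bZIP1 (6.42) came last, each overlapping its neighbour. In fructose bZIP11 (64.6) and bZIP25 (61.0) again led with overlap, and bZIP63 (4.75) and bZIP1 (1.99) were last with none. The order depends on the length used. By coding length bZIP53 (210.0 CPM per kilobase) and bZIP2 (187) led in mannitol with overlap, bZIP11 led alone in glucose (282) and in fructose (184), and bZIP63 (12.9) and bZIP1 (13.3) were last in glucose with overlap.

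In the leaf experiment, bZIP11, bZIP44, bZIP2 and bZIP10 rose and bZIP63 fell in both ERDL4 overexpressor lines, which share the wild-type libraries. In overexpressor 1, 4 members were called higher and 1 lower, 5 of 9, beside 43.8% of the 18703 genes tested (21.5% higher and 22.3% lower; edgeR). In overexpressor 2 the count was again 4 higher and 1 lower, beside 42.1% of all genes (20.6% higher and 21.5% lower). The median member change was 0.33 and 0.37, against 0.01 and 0.02 for all genes. Scaling by library size alone moved those medians of all genes to 0.216 and 0.282 and higher calls from 49% to 68.7% and 74.4%.

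bZIP63 fell in both lines. It read 15.8, 15.4 and 15 CPM in wild type, 6.52, 3.31 and 2.91 CPM in overexpressor 1 and 3.59, 2.64 and 1.77 CPM in overexpressor 2. The wild-type libraries lay within 1 CPM of each other and above every library of the lines. bZIP63 fell by 1.86 ± 0.30 in overexpressor 1 and by 2.53 ± 0.32 in overexpressor 2 (log2 ± SE, n = 3; edgeR adjusted p = 0.0012 and 0.000455). A change at least this large was found in 6.12% and 3.54% of genes tested.

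bZIP11 read 3.74, 4.79 and 4.29 CPM in wild type, 6.95, 13.3 and 15.1 CPM in overexpressor 1 and 18.4, 17.5 and 18.2 CPM in overexpressor 2. No group overlapped another, and overexpressor 1 replicate 1 lay apart from its group, toward wild type. The rise was 1.46 ± 0.25 and 2.07 ± 0.25 (edgeR adjusted p = 0.00153 and 0.000382). bZIP44 was scarce, with 1.18, 2.16 and 0.789 CPM in wild type, 3.26, 5.33 and 4.95 CPM in overexpressor 1 and 5.27, 2.85 and 3.27 CPM in overexpressor 2. All line libraries lay above all wild-type libraries, and the lines overlapped. It rose by 1.72 ± 0.38 and 1.46 ± 0.38 (edgeR adjusted p = 0.00481 and 0.0122).

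bZIP2 read 38.8, 39.4 and 42.1 CPM in wild type, 51.7, 64.5 and 61 CPM in overexpressor 1 and 56.5, 47.6 and 53.7 CPM in overexpressor 2. Both lines lay above wild type with no overlap. The rises were 0.56 ± 0.11 and 0.39 ± 0.11 (edgeR adjusted p = 0.003 and 0.0183). The call in overexpressor 2 was lost when its near-identical replicates were merged (0.42, edgeR adjusted p = 0.0537) and without its replicate 3 (0.38, edgeR adjusted p = 0.0571). bZIP10 read 35.6, 38 and 32.4 CPM in wild type, 59.1, 60.8 and 59.1 CPM in overexpressor 1 and 51.4, 51.2 and 49.98 CPM in overexpressor 2. The groups did not overlap, and overexpressor 1 was highest. It rose by 0.76 ± 0.09 and 0.53 ± 0.09 (edgeR adjusted p = 0.000347 and 0.00155).

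The other 4 members did not pass the test in either line. bZIP1 was low in leaves, with 3.49, 3.26 and 3.85 CPM in wild type, 2.75, 1.69 and 2.08 CPM in overexpressor 1 and 3.31, 1.81 and 1.25 CPM in overexpressor 2 (-0.70 ± 0.33 and -0.74 ± 0.33; edgeR adjusted p = 0.105 and 0.0984). Every library of overexpressor 1 lay below wild type, and overexpressor 2 overlapped it. Without overexpressor 2 replicate 1 both changes passed (-0.70 and -1.20, edgeR adjusted p = 0.0393 and 0.0123). bZIP53 read 28.7 to 31.5 CPM in wild type and 32.3 to 50.3 CPM across the lines, above wild type in all 6 libraries (0.33 ± 0.16 and 0.37 ± 0.16; edgeR adjusted p = 0.111 and 0.0816). It passed in overexpressor 1 without overexpressor 2 replicate 1 (0.33, edgeR adjusted p = 0.00973), in overexpressor 2 without overexpressor 2 replicate 2 (0.49, edgeR adjusted p = 0.0455), and in both with scaling by library size alone (0.54 and 0.63, edgeR adjusted p = 0.0115 and 0.00552). Without overexpressor 2 replicate 1, the highest library, the value in overexpressor 2 was 0.14 (edgeR adjusted p = 0.241).

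bZIP9 read 14.8 to 16.1 CPM in wild type, 16.4 to 17.7 CPM in overexpressor 1 and 10.52 to 13.9 CPM in overexpressor 2. Its changes were 0.11 ± 0.12 and -0.31 ± 0.12 (edgeR adjusted p = 0.473 and 0.0637). The latter passed with all 18 libraries in 1 fit (-0.30, edgeR adjusted p = 0.0311) and was -0.05 with scaling by library size alone (edgeR adjusted p = 0.784). Of the 6 phloem markers 4 were called higher and 1 lower in overexpressor 1, and 3 higher and 1 lower in overexpressor 2. Their sum was 712 to 755 CPM in wild type, 1061 to 1161 CPM in overexpressor 1 and 862 to 944 CPM in overexpressor 2. bZIP25 overlapped between all 3 groups, at 52.4 to 61.6 CPM in wild type, 50.7 to 59.2 CPM in overexpressor 1 and 41.5 to 61.4 CPM in overexpressor 2. Its values of -0.07 ± 0.15 and -0.18 ± 0.15 did not pass (edgeR adjusted p = 0.739 and 0.354), the sign of both turned with scaling by library size alone (0.14 and 0.08), and the latter passed without overexpressor 2 replicate 1 (-0.35, edgeR adjusted p = 0.0391).

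**Figure D3:**
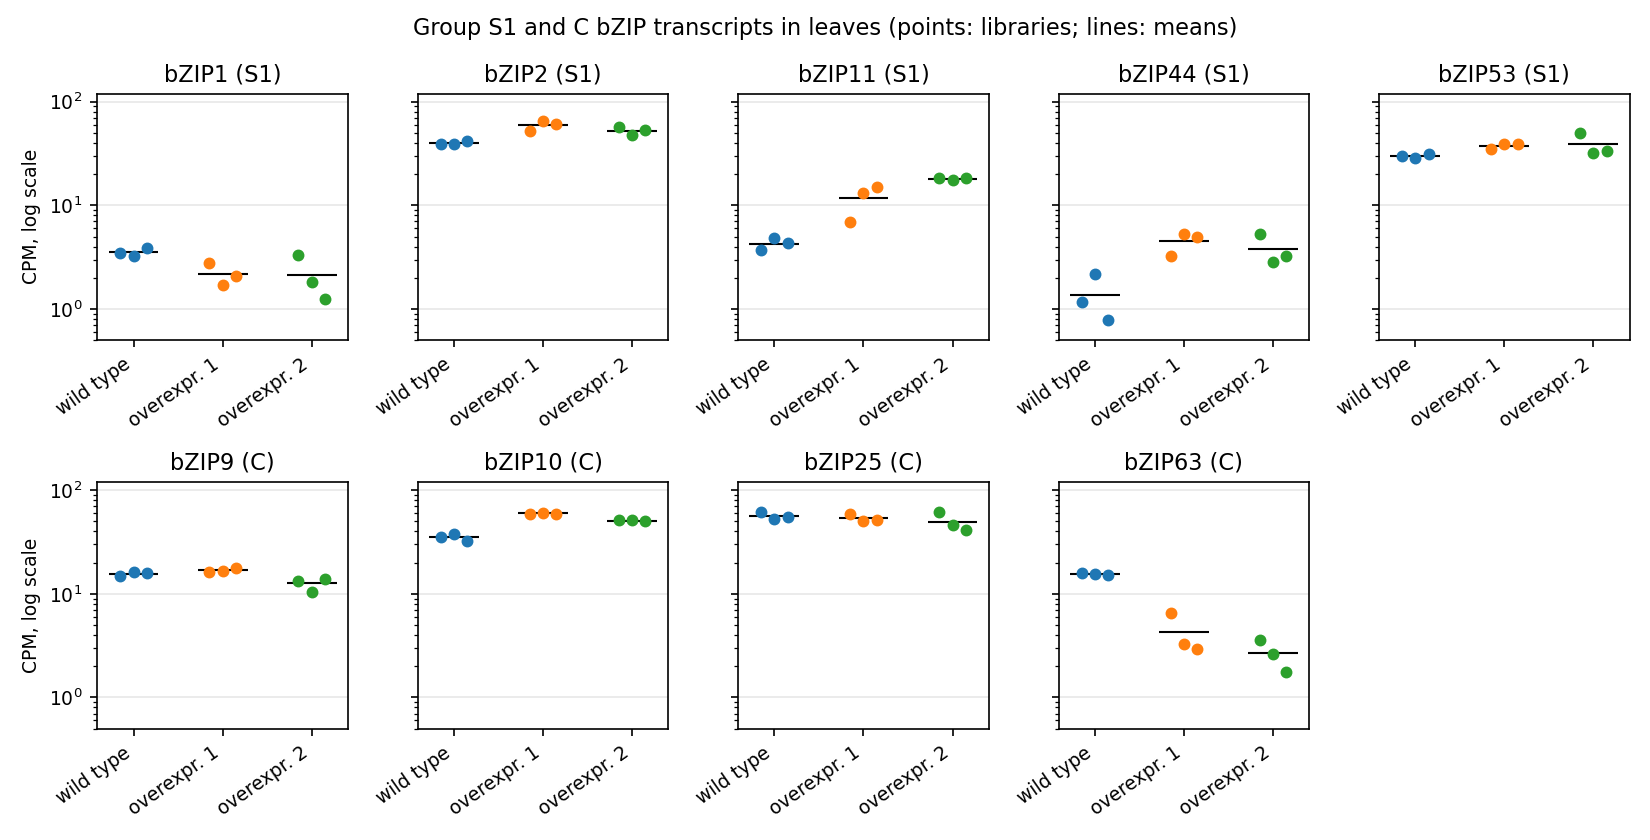
Levels of the 9 transcripts in each leaf library, in CPM on a log axis, with 3 points per group and a line at the group mean. bZIP63 lies between 15 and 15.8 CPM in wild type and at most 6.52 CPM in every library of the lines, while bZIP11 is lowest in wild type.

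Between the lines, 0 of 9 members were called (edgeR), beside 0.0535% of all genes (0.0321% higher and 0.0214% lower in overexpressor 2). DESeq2 and limma-voom also called 0 members, and 3 members had an unadjusted p under 0.05, namely bZIP11, bZIP9 and bZIP10. bZIP11 was higher in every library of overexpressor 2 than in overexpressor 1 (0.61 ± 0.24; edgeR adjusted p = 0.273). bZIP9 (-0.42 ± 0.12) and bZIP10 (-0.23 ± 0.09) were lower with no overlap (edgeR adjusted p = 0.156 and 0.275).

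**Figure D4:**
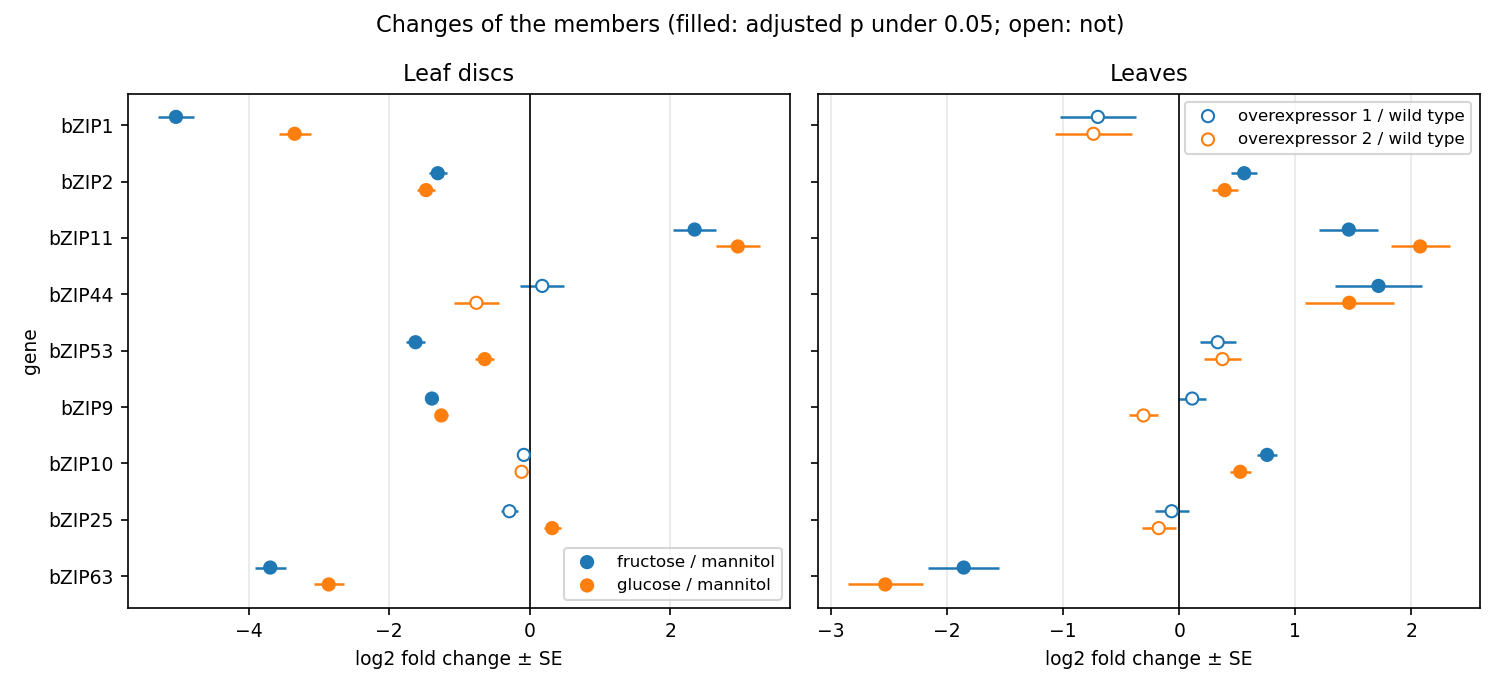
Log2 fold change of each member with its SE, in leaf discs (left, fructose and glucose over mannitol) and in leaves (right, each overexpressor line over wild type), with filled points for an adjusted p under 0.05. bZIP11 lies to the right and bZIP63 to the left of 0 in all 4 comparisons, and bZIP2 lies left in discs and right in leaves.

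Per length, bZIP2 and bZIP53 held most of the S1 level in leaves, at 50.6% ± 0.30 and 36.8% ± 0.92 in wild type, 52.1% ± 1.11 and 32.4% ± 1.83 in overexpressor 1 and 46.8% ± 3.55 and 33.1% ± 3.68 in overexpressor 2 (SD, n = 3). bZIP11 held 4.85% ± 0.59 in wild type, 9.14% ± 2.56 in overexpressor 1 and 14.5% ± 1.69 in overexpressor 2. In group C, bZIP63 held 13.4% ± 0.12 in wild type, 3.40% ± 1.44 in overexpressor 1 and 2.50% ± 0.64 in overexpressor 2, and bZIP10 held 25.7% ± 1.80, 40.3% ± 2.00 and 40.55% ± 3.56. The S1 sum was 62.5, 63.4 and 67.1 CPM per kilobase in wild type, 80.3, 98.8 and 97.5 in overexpressor 1 and 106.7, 81.2 and 87.3 in overexpressor 2, with both lines above wild type. The C sum overlapped between wild type (77.1 to 82.1) and overexpressor 2 (68.1 to 81.3) and was 83.4 to 89.4 in overexpressor 1. The S1 to C ratio was 0.81 ± 0.06 in wild type, 1.08 ± 0.16 in overexpressor 1 and 1.26 ± 0.07 in overexpressor 2, and every line library lay above the wild-type range of 0.761 to 0.870. By coding length the ratio was 1.51 ± 0.10, 2.05 ± 0.31 and 2.40 ± 0.14, so that in wild type the sum that was higher turned from C to S1, and the lines again lay above wild type.

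In wild-type leaves the order per kilobase was bZIP25 (33.1 CPM per kilobase) and bZIP2 (32.6), which overlapped, then bZIP53 (23.7), bZIP10 (20.4), bZIP9 (15.3), bZIP63 (10.7), bZIP1 (3.89), bZIP11 (3.12) and bZIP44 (1.05), with no overlap between neighbours. In overexpressor 1 bZIP2 led (48.0) and bZIP44 (3.44), bZIP63 (2.94) and bZIP1 (2.40) came last, each overlapping its neighbour. In overexpressor 2 bZIP2 led (42.7) and overlapped bZIP53 (30.6), and bZIP44 (2.90), bZIP1 (2.34) and bZIP63 (1.85) came last, again with overlap. By coding length bZIP2 (77.7 CPM per kilobase) led in wild type, followed by bZIP53 (67.9) and bZIP25 (46.5) with no overlap between these neighbours, and bZIP2 led in both lines (114 and 102).

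A list of 14 genes reported in Arabidopsis as bound or driven by C or S1 factors was read beside the members. In fructose 12 of 14 fell and 1 rose, and in glucose 13 fell and 1 rose, with a median of -3.10 and -2.78. Of all genes 29.5% were lower and 36.6% higher in fructose, and 35.5% and 38.5% in glucose. Sugar-repressed genes were placed on this list with earlier results of these data known, so it is no independent evidence of a direction. ASN1, an asparagine synthetase, fell from 882, 790.4 and 847 CPM in mannitol to 1.11, 0.0485 and 0.561 CPM in fructose and to 0.102, 0.181 and 0 CPM in glucose (edgeR adjusted p = 8.63e-07 and 4.08e-07). The glucose libraries held 2, 4 and 0 reads of it, so no fold is given. PRODH1, the proline dehydrogenase, fell from 1011, 801 and 983 CPM to 28.6, 33.8 and 22.3 CPM in fructose and 174, 124 and 113 CPM in glucose (-5.04 ± 0.23 and -2.77 ± 0.21; edgeR adjusted p = 8.56e-08 and 9.61e-07). Genes of branched-chain amino acid breakdown fell in both sugars. In fructose the log2 fold change was -4.37 ± 0.16 for BCAT2, -4.04 ± 0.12 for MCCA, -3.58 ± 0.12 for IVD and -2.62 ± 0.10 for ETFQO (edgeR adjusted p = 3.9e-08, 1.4e-08, 2.48e-08 and 3.75e-08). In glucose it was -4.67 ± 0.17, -4.55 ± 0.12, -3.29 ± 0.12 and -2.80 ± 0.10 in the same order (edgeR adjusted p = 1.74e-08, 7.64e-09, 1.73e-08 and 1.58e-08). GH3.3, an auxin-amido synthetase, went against the rest and rose from 0.172, 0.114 and 0.181 CPM in mannitol, which is 3, 2 and 4 reads, to 97.7, 96.2 and 67.5 CPM in fructose and 158, 344.5 and 62.3 CPM in glucose (edgeR adjusted p = 4.04e-05 and 1.4e-05). IAA3, an auxin-response repressor, did not pass in fructose (-0.47 ± 0.27; edgeR adjusted p = 0.143).

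Between the sugars, 4 of the 14 were lower in fructose and 1 was higher, beside 24.6% and 24.7% of all genes. The share called was 35.7%, beside 49.3% of all genes. In a list of 14 this gap is a matter of few genes and is not read as a result. Alternatives gave 3 to 5 lower and 1 to 3 higher. PRODH1 (-2.28 ± 0.20), PRODH2 (-1.35 ± 0.33) and DIN10, a raffinose synthase family member (-2.42 ± 0.25), were lower in fructose than in glucose (edgeR adjusted p = 0.000487, 0.00972 and 0.000604). IVD was also lower (-0.29 ± 0.11) and MCCA was higher (0.50 ± 0.11; edgeR adjusted p = 0.0479 and 0.00468). The count of higher genes was 3 without fructose replicate 2 and 2 without mannitol replicate 3.

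The windows before PRODH1 and ASN1 are shown as examples of reported targets that hold a searched motif, in capitals. They are chr3:12451557-12451806 (minus strand) and chr3:17441432-17441681 (minus strand) in TAIR10.1, again the 250 bases before the transcript start.
PRODH1: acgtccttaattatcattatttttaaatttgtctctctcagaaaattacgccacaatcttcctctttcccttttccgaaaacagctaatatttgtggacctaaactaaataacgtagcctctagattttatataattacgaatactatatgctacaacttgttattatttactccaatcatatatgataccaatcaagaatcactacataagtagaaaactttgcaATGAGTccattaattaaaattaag
ASN1: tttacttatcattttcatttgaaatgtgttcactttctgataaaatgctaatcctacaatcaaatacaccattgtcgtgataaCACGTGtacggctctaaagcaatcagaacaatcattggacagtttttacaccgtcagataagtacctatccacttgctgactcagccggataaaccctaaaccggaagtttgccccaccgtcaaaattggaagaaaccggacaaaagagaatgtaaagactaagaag
PRODH1 has ATGAGT, which is the ACTCAT element on the opposite strand, beginning 24 bases before the start, and ASN1 has the G-box CACGTG beginning 167 bases before it. Over the 14 listed genes, 2 windows held CACGTG, 3 held ACTCAT and 0 held GACGTC, beside the shares over all windows given above. The listed genes with a motif that are not shown are PRR7 and IAA3. PRR7 has CACGTG at 201 and ACTCAT at 239 bases before the start, and IAA3 has ACTCAT at 236. A match is a description of these letters and was not tested as a binding site.

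In leaves the same list was split. In overexpressor 1, 5 of 14 rose and 3 fell, and in overexpressor 2, 4 rose and 4 fell, with medians of 0.26 and -0.08. Of all genes 21.5% were higher and 22.3% lower in overexpressor 1, and 20.6% and 21.5% in overexpressor 2. BCAT2 read 0.769, 3.58 and 1.48 CPM in wild type, 11, 16.8 and 17.2 CPM in overexpressor 1 and 13.7, 14.4 and 14.8 CPM in overexpressor 2, with no overlap between wild type and the lines. It rose by 2.95 ± 0.41 and 2.88 ± 0.41, and TAT7, a tyrosine aminotransferase, by 1.48 ± 0.15 and 1.00 ± 0.15 (edgeR adjusted p = 0.000726 and 0.000883 for BCAT2, 0.000231 and 0.000836 for TAT7). DIN10 was lower, at 46.9, 20 and 26.6 CPM in wild type, 0.367 to 2.04 CPM in overexpressor 1 and 0.224 to 0.415 CPM in overexpressor 2 (-4.87 ± 0.53 and -6.44 ± 0.63; edgeR adjusted p = 0.000364 and 0.000238). The overexpressor 2 libraries held 4, 8 and 8 reads of DIN10, near the floor of 3 counts, so the size of its fall there is uncertain. PRODH1 (-1.28 ± 0.24 and -0.89 ± 0.24) and GH3.3 (-1.34 ± 0.37 and -1.78 ± 0.38) were also lower in both lines (edgeR adjusted p = 0.00219 and 0.0138, then 0.0146 and 0.00505). IAA3 was higher in both (0.77 ± 0.27 and 1.23 ± 0.27; edgeR adjusted p = 0.0432 and 0.00615). IVD and MCCA passed as higher in overexpressor 1 (0.53 ± 0.13 and 0.46 ± 0.13; edgeR adjusted p = 0.00861 and 0.0204). In overexpressor 2, PRODH2 passed as higher and SEN1 as lower (1.05 ± 0.36 and -1.26 ± 0.39; edgeR adjusted p = 0.0409 and 0.0296). Some of these calls came with libraries that overlapped wild type. In overexpressor 1, GH3.3 reached 3.06 CPM against a wild-type minimum of 2.81, and IAA3 went down to 20.7 against a wild-type maximum of 22. In overexpressor 2, SEN1 reached 6.90 CPM against a wild-type minimum of 6.62. The count of 5 rises in overexpressor 1 fell to 3 without its replicate 2, its replicate 3 or wild-type replicate 1, and to 2 with near-identical replicates merged. The 4 falls in overexpressor 2 were 2 without its replicate 2, without wild-type replicate 3 and with the merged pairs.

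**Figure D5:**
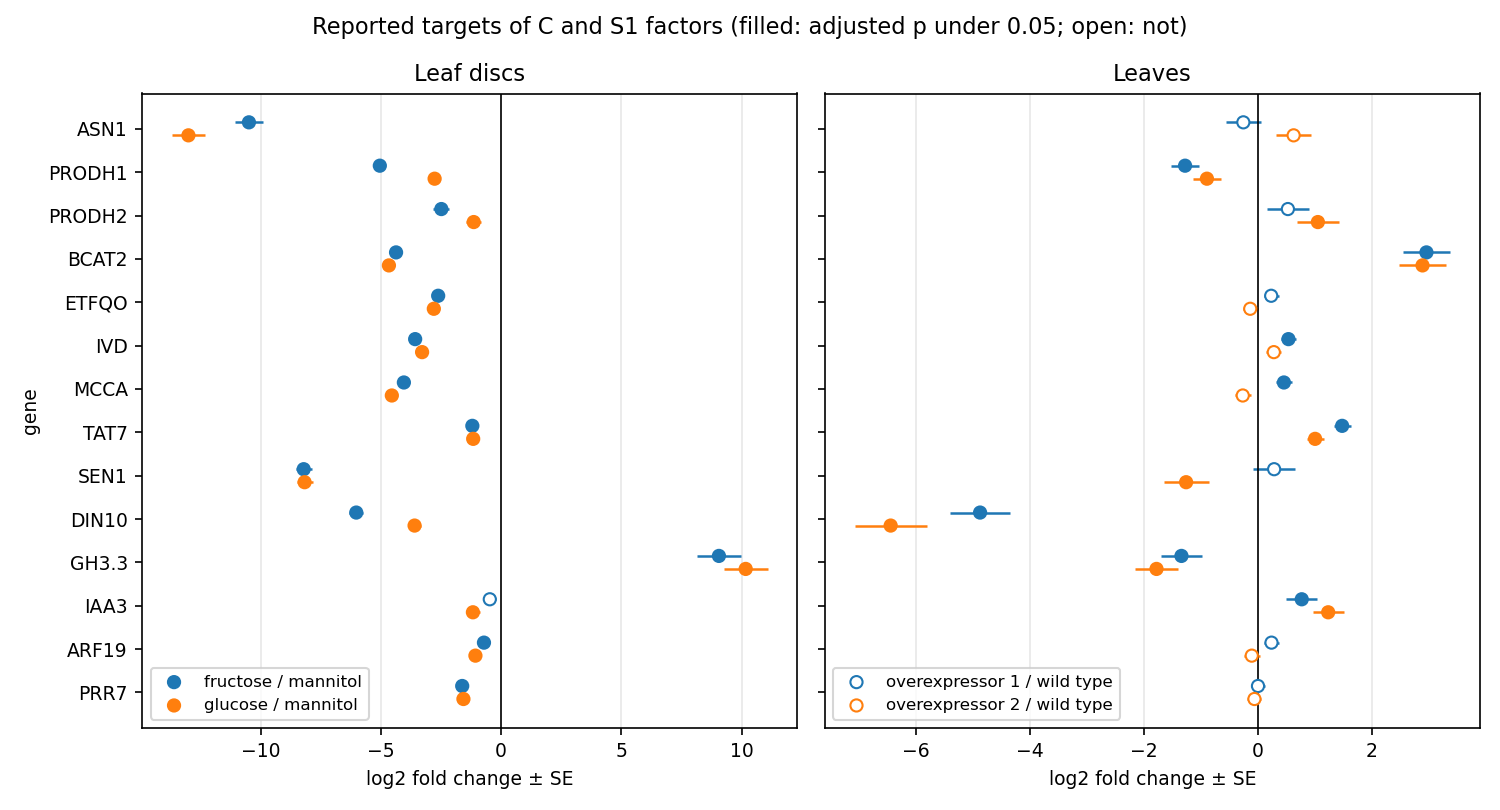
Log2 fold change with SE of the 14 reported targets, in leaf discs (left) and leaves (right), filled where the adjusted p was under 0.05. In discs GH3.3 lies far to the right and the other called genes to the left of 0, and in leaves BCAT2 lies right and DIN10 left in both lines.

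Of 4 partners of these factors, all 4 fell in both sugar comparisons, beside 29.5% of all genes lower in fructose and 35.5% in glucose. They were the SnRK1 catalytic subunits KIN10 and KIN11, the adaptor ADA2B and LSD1. This short list too was chosen with earlier results of these data known, so its count is no independent evidence of a direction. KIN10 read 90.4 to 95.1 CPM in mannitol, 53.2 to 69.96 CPM in fructose and 36.2 to 45.4 CPM in glucose, and it was higher in fructose than in glucose (0.66 ± 0.12; edgeR adjusted p = 0.00255). In leaves KIN10 rose by 0.90 ± 0.15 and 0.71 ± 0.15, and ADA2B by 0.44 ± 0.11 and 0.48 ± 0.11 (edgeR adjusted p = 0.00126 and 0.00453, then 0.00912 and 0.00604), while KIN11 and LSD1 did not pass in either line (edgeR adjusted p = 0.185 and 0.475, then 0.121 and 0.871).

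Group S has 12 further members outside S1, and 2 of these had enough reads to be tested. The other 10 reached at most 0.544 CPM in any library. bZIP7 rose in both sugars, from 0.229 to 0.402 CPM in mannitol to 1.18 to 2.42 CPM (2.57 ± 0.39 and 2.52 ± 0.39 in fructose and glucose; edgeR adjusted p = 0.00022 and 2e-04), and in overexpressor 2 (1.61 ± 0.41; edgeR adjusted p = 0.0114). In overexpressor 1 it did not pass (1.01 ± 0.42; edgeR adjusted p = 0.0719). Mannitol libraries held 7, 4 and 8 reads of bZIP7 and wild type 15, 12 and 12, so the sizes of its rises are uncertain. bZIP3 was higher in fructose than in glucose (0.68 ± 0.23; edgeR adjusted p = 0.0337) and lower in overexpressor 2 than in wild type, at 1.24 to 1.91 against 4.46 to 4.79 CPM (-1.67 ± 0.27; edgeR adjusted p = 0.00119).

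Profiles like those of the members were ranked by the root mean square difference of centred log2 CPM over the 9 libraries of an experiment, as a description, among 14164 genes in discs and 13873 in leaves. The libraries of a group share their treatment, so likeness mostly reflects the 3 group means. Nearest to bZIP1 in discs were AT2G30600, AT1G02610 and the lipase gene MPL1, at 0.29, 0.301 and 0.305. For bZIP63 in discs they were RUP1, a repressor of UV-B responses, the ubiquitin ligase gene RMA1 and AT3G61260, at 0.217, 0.243 and 0.255. For bZIP11 in discs they were AT1G75335, BRXL4 and ATERDJ3A, at 0.175, 0.184 and 0.185. In leaves, bZIP63 was nearest to AKINBETA1, a beta subunit gene of SnRK1, at 0.228, then AT1G03220 and the polyol transporter gene PMT6 at 0.237 and 0.238. bZIP11 in leaves was nearest to AT4G27560, AT1G68220 and AT1G27030, at 0.169, 0.176 and 0.177.

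At the gene level, the S1 members are compact. bZIP1 (TAIR10.1 chromosome 5, 20051829 to 20052735), bZIP2 (chromosome 2, 7898012 to 7899242), bZIP11 (chromosome 4, 16521861 to 16523230) and bZIP53 (chromosome 3, 23091586 to 23092850) have 1 exon, and bZIP44 (chromosome 1, 28291698 to 28293008) has up to 2. The C members bZIP9 (chromosome 5, 8515200 to 8516669), bZIP10 (chromosome 4, 1153945 to 1156356), bZIP25 (chromosome 3, 20217854 to 20220497) and bZIP63 (chromosome 5, 10796457 to 10798305) have up to 6 or 7. Coding lengths ran from 438 to 522 bases in S1 and from 834 to 1254 bases in C. No exon stretch of 50 bases in any of the 9 occurs elsewhere in the genome on either strand, and bZIP9 alone overlaps an annotated gene.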

How the data were processed

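The authors deposited raw read counts per gene for 18 libraries, checked here to be whole numbers. Per the submitters' processing notes, reads were handled with fastp, HISAT2 2.0.5 and StringTie 1.3.3 on TAIR10. Libraries were directional per the labels, and no source used here names the counting tool or its strand setting. Loci, names and sequences came from RefSeq TAIR10.1, which matched 32548 of 32833 identifiers and all 59 listed genes.

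Discs and leaves were fitted apart with edgeR 4.0.16 in R 4.3.3 (filterByExpr, TMM, robust quasi-likelihood test, 1 mean per group, 6 residual degrees of freedom), and a gene was called at a p under 0.05 after Benjamini-Hochberg adjustment over all genes tested. CPM is counts over TMM-scaled library size. SE is the absolute log2 fold change over the square root of F. Levels per kilobase use the union of exons. The pipeline was tested on simulated data. limma 3.58.1 (voom) and DESeq2 1.42.0 served as alternatives. Figures used matplotlib 3.10.9.

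All 9 members are named in every comparison, and of each list those with the smallest p, those against its majority and a few chosen for their roles. The sequence before bZIP1 is not reported here. Members and lists were chosen with earlier results of these data known. Alternatives were other scalings, filters, tools, thresholds and sample sets, merged near-identical pairs and each library left out. Counting depth limits bZIP44 and bZIP1 in leaves, and bZIP63 in the lines (34 to 64 reads in overexpressor 2). It also limits bZIP1 in the fructose discs (38, 42 and 43 reads). In leaves a library's floor of 3 counts is 0.110 to 0.168 CPM.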

Additional observations from a re-analysis of the deposited data

How the results depend on the processing

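Over 22 alternatives per comparison, bZIP1, bZIP63, bZIP11, bZIP2 and bZIP9 in both sugar comparisons, bZIP53 in fructose, and bZIP63 and bZIP11 in both lines kept direction and call. At an adjusted p under 0.01, 3 members were called in fructose against glucose and 3 in overexpressor 2 (5 and 5 at 0.05). With a log2 fold change of at least 1 also asked, 1 was called in fructose against glucose and 3 in each line. All 18 libraries in 1 fit called 1 between the lines in place of 0, bZIP9 at -0.46. Leaving out single libraries gave 6 to 7 calls in fructose and 6 to 8 in glucose against mannitol, 4 to 6 between the sugars, 5 to 7 in overexpressor 1, 4 to 7 in overexpressor 2 and 0 between the lines.

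Signs turned only for changes that were not called. With library size alone, bZIP10 was at 0.17 in fructose and 0.08 in glucose against mannitol, bZIP25 at 0.14 and 0.08 in overexpressor 1 and 2, and bZIP1 at 0.01 between the lines. Between the sugars bZIP10 was at -0.02 with RLE, DESeq2 and all 18 libraries and at -0.01 without the 100 most abundant genes. With near-identical pairs merged, bZIP44 in fructose was at 0.00 and bZIP1 between the lines at 0.07. Leaving out single libraries spanned -0.05 to 0.64 for bZIP44 in fructose, -0.02 to 0.11 for bZIP10 between the sugars, -0.14 to 0.03 for bZIP25 in overexpressor 1, and, between the lines, -0.50 to 0.23 for bZIP1, -0.29 to 0.00 for bZIP25 and -0.19 to 0.16 for bZIP53. The causes were not tested. The count over all genes between the lines, 10, was 724 with DESeq2, 492 without wild-type replicate 2, 171 without overexpressor 2 replicate 1, 164 with all 18 libraries in 1 fit, 91 with the 2 groups alone, 30 without overexpressor 1 replicate 1, 25 with no filter and 0 to 3 under the replicate block, merged pairs and the other omissions. Merging pairs took overexpressor 1 from 8196 to 5062.

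Same-numbered replicates did not deviate together (correlations of -0.426 to 0.159), so the numbers were not taken to pair libraries. With the replicate block, 6 members were called in fructose, 6 in glucose, 5 between the sugars, 5 in overexpressor 1, 5 in overexpressor 2 and 0 between the lines, the call not made being bZIP25 in glucose (0.32, edgeR adjusted p = 0.0708). Target counts under alternatives were chosen after seeing the data. Coding length in place of exon length moved 19 of 54 shares by more than 1 SD, by up to 4.90 points.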
